A study of Mus musculus with 309 samples.

Results

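The genes described here are 36 genes of the cell's answer to amino acid shortage and to unfolded protein, read by symbol from a count table of 55291 gene symbols. They form 2 lists: 21 genes regulated with Atf4, from Atf3 to Ppp1r15a (called Atf4-type below), and 15 genes of protein folding and disposal in the endoplasmic reticulum, from Hspa5 to Sel1l (called chaperone genes). All 36 were found and all 36 passed the filter on low counts in each comparison. The samples were 309 mammary tumours of 24 mouse models of breast cancer, profiled by bulk poly(A) RNA-seq of frozen tissue. Of these, 64 tumours in 18 models were untreated, 66 in 22 models received carboplatin plus paclitaxel (DNA-damaging and microtubule-blocking chemotherapy), and 48 in 16 models received antibodies to PD1 and CTLA4 (immune checkpoint receptors). The kinase inhibitors were erlotinib, which blocks EGFR, in 66 tumours of 22 models, and trametinib, which blocks MEK, in 65 tumours of 22 models. The labels name model and treatment and give no dose, duration, strain or age. Most groups, 92 of 100, held 3 tumours. Among the models, MMTV-Neu and MMTV-PyMT carry an oncogene under the mammary tumour virus promoter, and 4T1 is a transplanted cell line. A tumour sample holds tumour cells and host cells together, so fewer cells of a type and less RNA per cell cannot be told apart in any result here.

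When amino acids run short or unfolded protein builds up, the kinases Eif2ak4 and Eif2ak3 phosphorylate the initiation factor eIF2. General translation then falls while translation of the Atf4 mRNA rises, and Atf4 protein, with C/EBP partners, switches on genes for amino acid synthesis, amino acid import and tRNA charging. A separate pair of sensors in the endoplasmic reticulum membrane, Ern1 and Atf6, raises chaperones, in part through the transcription factor Xbp1, whose mRNA Ern1 splices. Counts per gene do not separate spliced from unspliced Xbp1, and the level of Atf4 mRNA is not a measure of Atf4 protein. In breast tumours the serine synthesis enzymes of the Atf4 list and the cystine importer Slc7a11 are known for their part in growth and in defence against oxidants.

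The promoters of the lists differ in sequence, and 6 of them are printed here because they show the elements by which the lists are usually told apart. Each run is the 250 bases before the gene start in RefSeq (GRCm38.p6), on the gene's own strand. The capitals mark the C/EBP-ATF element TGATGNAA (read as TTNCATCA on the other strand) in Asns, Chac1, Slc7a11 and Herpud1, and the endoplasmic reticulum stress element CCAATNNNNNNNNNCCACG (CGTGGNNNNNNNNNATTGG) in Hspa5 and Creld2. Asns lies at chr6:7693210-7693459 on the minus strand, Chac1 at chr2:119350992-119351241 on the plus strand and Slc7a11 at chr3:50443614-50443863 on the minus strand. Hspa5 lies at chr2:34771840-34772089, Creld2 at chr15:88819396-88819645 and Herpud1 at chr8:94386179-94386428, all on the plus strand.
Asns: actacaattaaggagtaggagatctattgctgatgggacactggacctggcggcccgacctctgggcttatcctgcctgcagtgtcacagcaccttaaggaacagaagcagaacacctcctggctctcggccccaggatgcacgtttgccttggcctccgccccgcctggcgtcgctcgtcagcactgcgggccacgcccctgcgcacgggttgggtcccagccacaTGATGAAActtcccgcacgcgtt
Chac1: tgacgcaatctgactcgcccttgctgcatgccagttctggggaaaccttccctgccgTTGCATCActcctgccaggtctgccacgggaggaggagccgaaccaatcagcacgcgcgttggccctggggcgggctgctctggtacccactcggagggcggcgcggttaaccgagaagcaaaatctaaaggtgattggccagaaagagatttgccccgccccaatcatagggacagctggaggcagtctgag
Slc7a11: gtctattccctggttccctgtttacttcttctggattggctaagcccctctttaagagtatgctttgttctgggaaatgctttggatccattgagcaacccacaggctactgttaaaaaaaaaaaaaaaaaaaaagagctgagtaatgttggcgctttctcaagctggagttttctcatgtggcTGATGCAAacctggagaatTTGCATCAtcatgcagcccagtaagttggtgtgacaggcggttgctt
Hspa5: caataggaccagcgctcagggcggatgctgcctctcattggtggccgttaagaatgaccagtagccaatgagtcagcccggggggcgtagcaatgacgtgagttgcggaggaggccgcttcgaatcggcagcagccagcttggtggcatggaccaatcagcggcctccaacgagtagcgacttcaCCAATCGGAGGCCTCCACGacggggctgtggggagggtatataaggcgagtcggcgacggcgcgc
Creld2: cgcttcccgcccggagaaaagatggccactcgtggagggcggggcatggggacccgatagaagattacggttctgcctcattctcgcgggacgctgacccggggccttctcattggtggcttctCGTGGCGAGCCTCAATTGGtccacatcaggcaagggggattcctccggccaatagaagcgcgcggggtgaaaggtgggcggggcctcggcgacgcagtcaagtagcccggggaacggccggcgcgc
Herpud1: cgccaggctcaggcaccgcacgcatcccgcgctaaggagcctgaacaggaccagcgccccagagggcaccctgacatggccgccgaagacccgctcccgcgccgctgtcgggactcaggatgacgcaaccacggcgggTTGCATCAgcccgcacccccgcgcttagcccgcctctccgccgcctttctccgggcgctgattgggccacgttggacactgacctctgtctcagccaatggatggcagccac

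A promoter of 300 bases (250 before the start and 50 after it) was found for 19 Atf4-type and 13 chaperone genes, and none for Slc7a5, Slc7a3, Manf and Hyou1. On either strand the C/EBP-ATF element was present for 8 of the 19 Atf4-type genes (42.1%): Atf3, Trib3, Chac1, Asns, Pycr1, Slc7a11, Nupr1 and Vldlr. The 19 genes had 22 promoters in all, and 8 of these (36.4%) held the element. Among the chaperone genes 1 of 13 (7.69%) held it, Herpud1, and 4.51% of 27025 genes with a promoter did. In Slc7a11 it occurred at 66 and again at 47 bases before the start, once on each strand. The endoplasmic reticulum stress element was in no promoter of the 19 Atf4-type genes. It was in 6 of the 13 chaperone promoters (46.2%), those of Hspa5, Hsp90b1, Calr, Dnajc3, Pdia6 and Creld2, against 0.137% of all genes. Neither motif overlapped the other. The related motif TGACGTG was in 1 chaperone promoter, Hspa5, in no Atf4-type promoter and in 2.22% of all genes. Under erlotinib the median change of the 8 Atf4-type genes with the C/EBP-ATF element was 0.37 on the log2 scale (0.13 to 0.85). That of the 11 without it was 0.17 (-0.05 to 0.41), so the ranges overlapped. Under trametinib these medians were 0.00 and 0.02, under chemotherapy 0.15 and 0.02 and under antibodies 0.16 and 0.07, each against untreated tumours. They were -0.08 and -0.11 for trametinib against erlotinib and 0.27 and 0.17 for antibodies against chemotherapy. The part of the element in these values was not tested. A match is a description of letters and does not show binding.

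Estimated counts per tumour summed to between 12.1 M and 226 M (median 78.6 M). Median depth was 76.9 M in untreated, 103 M in chemotherapy, 113 M in antibody, 39.3 M in trametinib and 34.3 M in erlotinib tumours, and the treated arms were often far from the untreated arm in library number, a running number in the sample names. Levels below are in CPM, counts per megacount of a library's scaled total, and a level is compared only with levels of the same gene. A change is a log2 difference with its standard error from edgeR's quasi-likelihood test, with the model as a term, and a gene is called at an adjusted p (Benjamini-Hochberg over all genes) under 0.05. Of 8 genes of ERK output, the pathway that MEK feeds, 8 fell under trametinib and 2 fell under erlotinib, each against untreated tumours. Beside these counts, 16.7% and 2.65% of all genes fell. The ERK list, like the others, was chosen with earlier results of these data known.

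Without treatment the models differed in all 36 genes. The test of 16 models (62 tumours) called 36 of 36, where 98.1% of 22779 genes were called, so the share is near that of all genes. Asparagine synthetase, Asns, measured 609.6 ± 147 CPM (SD, n = 3) in T12, 233 ± 31.7 in p53RB-426 and 31.5 ± 3.58 in KPB25L. The tumours of T12 measured 470.5, 595 and 763 and those of p53RB-426 208, 224 and 269, with no overlap. The highest pair of models overlapped for 16 of the 21 Atf4-type genes, Asns, Shmt2, Mthfd2, Slc7a3 and Ppp1r15a being exceptions. That pair was picked for each gene from these same values, and how often all genes show such a gap was not computed. A gap here or in the untreated levels below is therefore a description and not a trait particular to these genes.

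p53RB-426 led the serine and one-carbon genes. Phgdh, the enzyme that starts serine synthesis, measured 353 ± 26.0 CPM there and 38.4 ± 11.8 in C3-TAG. Shmt2, which makes glycine and one-carbon units in mitochondria, measured 506 ± 25.6 in p53RB-426 and 349 ± 60.5 in the next model, T12, without overlap. Mthfd2, the following mitochondrial step, measured 127 ± 9.55 in p53RB-426 and 4.76 ± 0.369 in MMTV-Neu. Slc7a11, which brings in cystine, also stood highest in p53RB-426, at 17.9 ± 3.58, and lowest in MMTV-PyMT, at 0.980 ± 0.433. Its values in p53RB-426 and in the next model, T11-APOBEC (14.7 ± 2.07), overlapped.

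Trib3, a pseudokinase induced by Atf4 that restrains it, was ordered in another way: 144 ± 56.4 CPM in MMTV-Neu, 110.4 ± 19.6 in 2153 and 5.06 ± 1.46 in K14-TRT. The range of model means was widest for Slc7a3, an importer of basic amino acids, at 55.8-fold, and narrowest among Atf4-type genes for Cebpg, a C/EBP partner, at 1.82-fold. Among chaperone genes Xbp1 ranged most, 22.8-fold. Xbp1 measured 1801 ± 839 CPM in MMTV-PyMT, 1303 ± 218 in MMTV-Neu and 79.0 ± 7.16 in p53RB-426. Calr, a calcium-binding chaperone, was highest in T12 at 2699.6 ± 546, above 1743 ± 100.2 in p53RB-626, with no overlap. Sel1l, part of the disposal complex, measured 695 ± 395 in MMTV-Neu and 196 ± 66.4 in MMTV-PyMT, also without overlap, as did the top pair of models for Pdia6 and Edem1. Hspa5, the main chaperone and sensor of load, differed less, from 525 ± 101 in KPB1-B to 1356 ± 22.0 in p53RB-624, and Pdia4, a disulphide isomerase, differed least of the 36 at 1.76-fold.

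**Figure D1:**
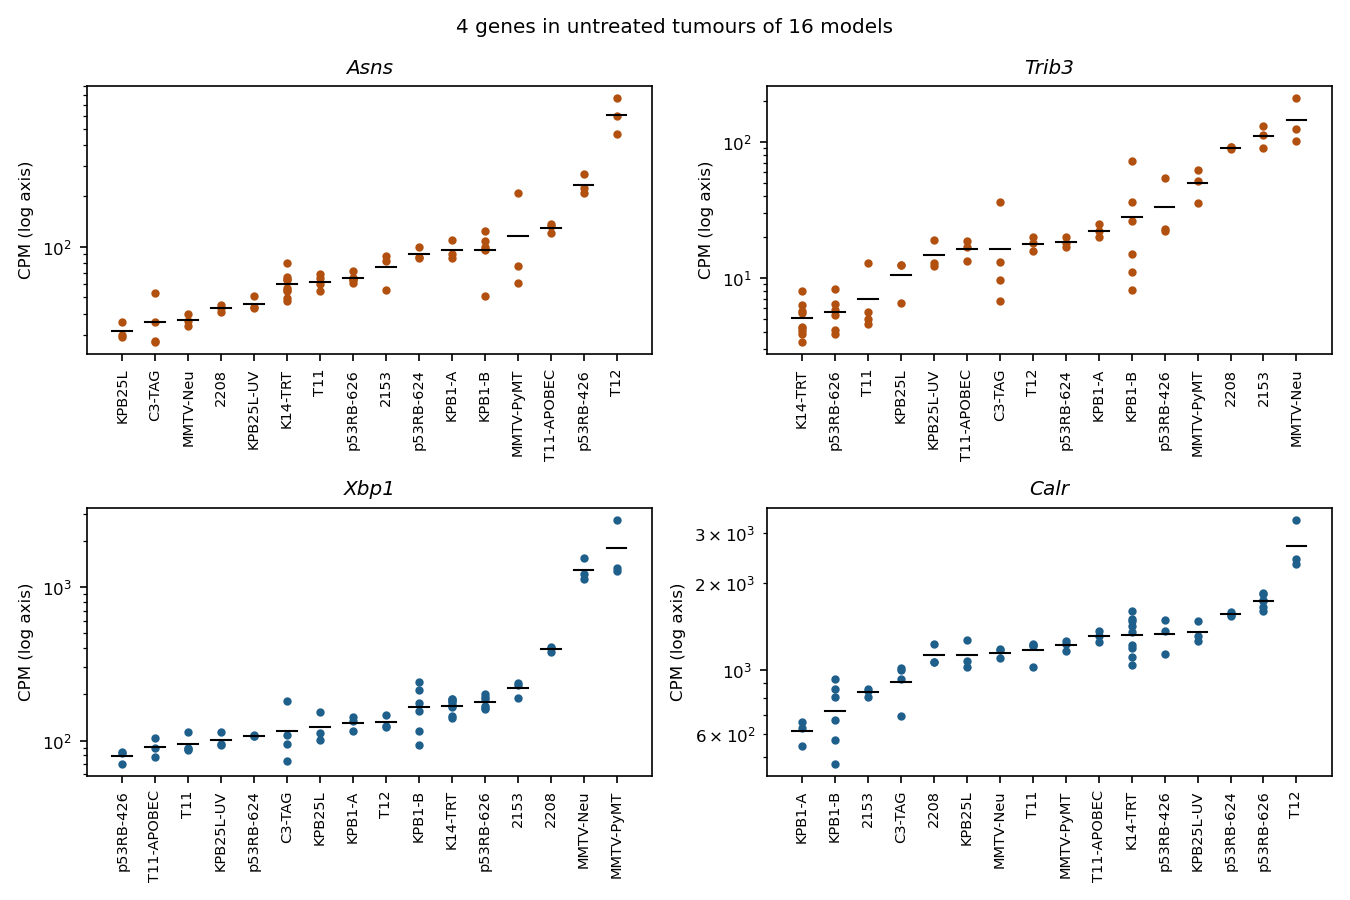
Level of 4 genes in the untreated tumours of the 16 models with at least 3 of them, in CPM on a log axis; each point is a tumour, each bar the model mean, and models are sorted by mean in each panel. Asns in T12 (609.6 ± 147) stands apart from the next model, and Xbp1 is high in MMTV-PyMT and MMTV-Neu.

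Erlotinib tumours had more mRNA of several Atf4-type genes than untreated tumours of the same models, while few chaperone genes were called. In 16 models (48 erlotinib and 54 untreated tumours) 6 of 21 Atf4-type genes rose and none fell, with a list median of 0.18, where 1.88% of all genes tested rose, 2.65% fell and the median was -0.01. The genes that rose were Slc7a11, Nupr1, Atf5, Ddit3, Cebpg and Slc3a2. Of the 15 chaperone genes 1 rose and 1 fell, with a median of -0.07.

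Slc7a11 rose most, by 0.85 ± 0.18 (adjusted p = 0.00311 by edgeR). Its lowest, median and highest levels were 0.308, 11 and 49.6 CPM in erlotinib tumours and 0.679, 4.87 and 21.7 in untreated tumours. The groups overlapped across models, and the model mean was higher under erlotinib in 13 of 16 models. Atf5, a relative of Atf4, rose by 0.41 ± 0.10 (adjusted p = 0.00714), from 45.5, 105 and 324 to 49.4, 130.0 and 314 CPM (lowest, median and highest). Nupr1, a small stress-induced chromatin protein, rose by 0.52 ± 0.14 (adjusted p = 0.0154), with 3.43, 102 and 330.2 CPM in erlotinib and 3.34, 68.5 and 339.9 in untreated tumours. For both genes the ranges of the arms overlapped almost wholly. The rise of Ddit3, the transcription factor CHOP, was 0.33 ± 0.10, that of Cebpg 0.19 ± 0.05 and that of Slc3a2, the heavy chain of amino acid exchangers, 0.18 ± 0.05. Ddit3 is counted over 2 overlapping gene models, whose reads cannot be told apart.

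Other Atf4-type genes did not pass the test under erlotinib. Chac1, which degrades glutathione, had a change of 0.50 ± 0.17 (adjusted p = 0.0682) and was higher in 13 of 16 models. Atf3 had 0.48 ± 0.19, Asns 0.26 ± 0.10, Psat1 (the second step of serine synthesis) 0.14 ± 0.08, Phgdh 0.05 ± 0.10, Trib3 0.13 ± 0.16 and Atf4 itself 0.13 ± 0.05. Of the chaperone genes Dnajb9, a cofactor of Hspa5, rose by 0.30 ± 0.08, with 4.69, 30.3 and 98.9 CPM against 4.56, 26.9 and 47.0. Hyou1, a large chaperone of the reticulum, differed by -0.23 ± 0.05 (adjusted p = 0.00405), with 122, 217 and 392 CPM against 81.9, 232 and 524. Hsp90b1 missed the threshold at -0.14 ± 0.05 (adjusted p = 0.0527), with 469, 946 and 1612 CPM against 573, 1008 and 1680.3. Hspa5 had -0.06 ± 0.05, Xbp1 -0.02 ± 0.07, Calr -0.06 ± 0.04 and Herpud1, which helps to dispose of unfolded protein, 0.15 ± 0.07. The calls of Atf4-type genes fell to 3 without MMTV-Neu (Atf5, Slc7a11 and Nupr1), to 1 where untreated tumours had a library number within 100 of the treated ones (11 models), and to 0 in a test with 1 difference per model. Of all genes 2.62%, 3.94% and 0% were called in these settings, and 4.53% in the main test. Among the marker lists under erlotinib, 8 of 10 proliferation genes were lower (median -0.38), 1 of 7 epithelial markers was lower (median -0.14) and 1 of 7 plasma cell markers was higher (median -0.12), with none called in the other 7 lists. Their part in these changes was not tested.

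Single models went different ways under erlotinib. The list median of Atf4-type genes was above 0 in 13 of 16 models, and that of chaperone genes was below 0 in 10 of 16. Called Atf4-type genes rose and none fell in 2208 (8), T11 (6), 2153 (6) and C3-TAG (6, beside 4.72% of all genes called), more rose than fell in MMTV-Neu (9 and 4), more fell than rose in MMTV-PyMT (11 and 2) and KPB1-B (4 and 2), and the other 9 models had at most 1 called. In T11, a model whose epithelial marker list summed to only 24.3 to 55.2 CPM untreated, 6 Atf4-type genes rose and no chaperone gene was called, where 0.304% of 26317 genes were called in either direction. Slc7a11 in T11 measured 2.21, 2.83, 3.78 and 20.2 CPM untreated and 28.1, 31.1 and 37.8 under erlotinib, a change of 2.14 ± 0.45. The untreated tumour at the top of its group lay below all erlotinib tumours, and it was the 1 of the 4 whose library number was over 100 away from the erlotinib ones. Trib3 in T11 went from 4.61, 4.99, 5.58 and 12.8 to 24.1, 25.6 and 36.1 CPM (2.02 ± 0.37), and Asns from 54.5, 59.7, 64.8 and 69.0 to 135, 138 and 145 (1.17 ± 0.23), both without overlap. The other called members there were Chac1 (1.81), Slc7a3 (1.66) and Atf5 (0.96). For erlotinib T11, 2153, C3-TAG and KPB1-B, for trametinib T11, 2208 and T11-APOBEC, and between the inhibitors 2208 and T11-APOBEC were chosen for description after their values were seen.

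In 2208 erlotinib raised 8 Atf4-type genes (5.92% of all genes called). Chac1 there measured 1.68, 2.05 and 2.97 CPM untreated and 6.55, 8.75 and 13.9 under erlotinib (2.12 ± 0.47). Also higher were Nupr1 (1.68), Atf5 (1.66), Slc7a11 (1.48), Ddit3 (1.13) and Mthfd2 (1.08). Of the chaperone genes in 2208 Herpud1 rose (0.76) and Edem1, which marks proteins for disposal, fell (-0.57). In 2153 erlotinib raised 6 Atf4-type genes (4.01% of all genes): Nupr1 (1.46), Atf5 (1.29), Asns (1.21), Aldh18a1 (0.93), Shmt2 (0.85) and Slc3a2 (0.52). In KPB1-B, with 24.1% of all genes called, Nupr1 (2.51) and Atf5 (1.09) rose, while Slc7a11 (-1.25), Slc7a5 (-1.0), Shmt2 (-0.79) and Asns (-0.64) fell, as did the chaperone genes Hsp90b1 (-0.38) and Edem1 (-0.31). Asns in KPB1-B measured 50.9, 95.8, 97.0, 99.8, 107 and 124 CPM untreated and 52.5, 61.6 and 68.0 under erlotinib, with overlap through 1 low untreated tumour. The untreated libraries of 2208, 2153, C3-TAG, MMTV-Neu and MMTV-PyMT were all numbered over 100 away from the erlotinib and trametinib ones, so for these models library number and treatment cannot be told apart. In T11 3 of 4 and in KPB1-B 3 of 6 untreated libraries lay within 100. In T11-APOBEC, where the mean library numbers differed by 6, no member was called under erlotinib.

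MMTV-Neu had the largest share of genes called under erlotinib, 40.8%, and members moved both ways: 9 Atf4-type genes rose and 4 fell. The 3 erlotinib tumours were unlike one another. Atf3, an early stress factor, measured 21.3, 125 and 594 CPM in them and 9.32, 10.4 and 14.5 in untreated tumours (4.49 ± 0.54), while Trib3 measured 15.0, 21.7 and 25.3 against 102, 123 and 208 (-2.77 ± 0.41). Slc7a11 (3.48), Mthfd2 (2.59), Ddit3 (1.33) and Cebpg (1.18) rose with Atf3. Among chaperone genes Dnajb9 (1.07), Edem1 (0.66) and Dnajc3, an inhibitor of Eif2ak3 and cochaperone, (0.56) rose and Sel1l (-1.26), Pdia4 (-0.63) and Hyou1 (-0.54) fell. In those 3 tumours the summed level of 8 skeletal muscle markers ran from 4.72 to 17188 CPM (3.69 to 19.6 untreated), that of epithelial markers from 309 to 3668 (4307 to 5257 untreated) and that of proliferation genes from 48.4 to 83.8 (682 to 922 untreated). Their part in the result was not tested.

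Trametinib tumours had less mRNA of the serine, one-carbon and asparagine enzymes and of most chaperone genes, with Nupr1, Ddit3, Slc3a2 and Dnajb9 moving the other way. Against the same untreated tumours (48 trametinib, 54 untreated, 16 models) 6 Atf4-type genes fell and 3 rose, and 8 chaperone genes fell and 1 rose. Of all genes 16.7% fell and 14.4% rose, so changes in both directions were common outside the 36 genes too. The list medians were -0.04 for Atf4-type and -0.15 for chaperone genes, with -0.01 over all genes, and the Atf4-type median turned to 0.08 with untreated tumours of nearby library number. In single models the Atf4-type median was below 0 in 8 and above 0 in 8 of 16. The chaperone median was below 0 in 12 and above 0 in 4.

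Of the Atf4-type genes Shmt2 had the smallest p: its change was -0.41 ± 0.06 (adjusted p = 1.89e-08 by edgeR), lower in 15 of 16 models. Its lowest, median and highest levels were 48.7, 125 and 663 CPM under trametinib and 64.9, 159 and 524 untreated. Psat1 changed by -0.39 ± 0.08 (adjusted p = 1.57e-04), with 24.9, 127 and 324 CPM against 29.0, 162 and 321. Falls were also called for Slc7a11 (-0.43 ± 0.14), Mthfd2 (-0.34 ± 0.10), Phgdh (-0.34 ± 0.11) and Asns (-0.29 ± 0.10). For each of these the ranges over all tumours overlapped, the models being further apart than the arms. Nupr1 rose by 0.74 ± 0.13 (adjusted p = 5.63e-06) and was higher in 13 of 16 models, with 7.58, 120.0 and 407 CPM against 3.34, 68.5 and 339.9. Ddit3 rose by 0.30 ± 0.09 and Slc3a2 by 0.15 ± 0.05. The others of interest did not pass: Atf4 had 0.02 ± 0.06, Atf3 0.31 ± 0.13, Trib3 -0.06 ± 0.14 and Chac1 -0.04 ± 0.16.

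Of the chaperone genes Pdia4 changed by -0.21 ± 0.04 (adjusted p = 1.61e-06), with 144, 189 and 274 CPM against 141, 224 and 321 untreated. Hyou1 changed by -0.33 ± 0.05 (105, 206 and 369 CPM against 81.9, 232 and 524), and Sdf2l1, a small partner of the Hspa5 complex, by -0.41 ± 0.07 (14.9, 26.6 and 67.3 against 11.7, 37.6 and 76.9). Each of Hyou1 and Sdf2l1 was lower in 14 of 16 models. Smaller falls were called for Edem1 (-0.20 ± 0.05), Hsp90b1 (-0.19 ± 0.05), Hspa5 (-0.16 ± 0.05), Creld2 (-0.15 ± 0.05) and Manf, a secreted stress factor (-0.15 ± 0.06). Dnajb9 rose by 0.37 ± 0.09. Xbp1 (0.04 ± 0.07), Herpud1 (0.09 ± 0.09) and Calr (-0.02 ± 0.04) did not pass. The calls of Psat1, Shmt2, Nupr1, Sdf2l1 and Hyou1 held in each of the 11 other settings tried, and with 1 difference per model only these 5 were left. Atf4-type calls fell from 9 to 4 with the untreated tumours that the labels assign to this comparison. Of all genes 31.1% were called in the main test, 24.2% with these untreated tumours and 6.83% with 1 difference per model. Among the marker lists under trametinib, 7 of 7 fibroblast markers were higher (median 1.04), 6 of 6 endothelial markers were lower (median -0.62), 10 of 10 proliferation genes were lower (median -0.63), 5 of 9 immediate early genes were lower (median -0.29), 3 of 6 milk genes were higher (median 1.66), 2 of 7 plasma cell markers were higher and 1 lower (median 0.31), 2 of 6 adipocyte markers were higher (median 0.90), 2 of 7 epithelial markers were lower (median -0.14) and 2 of 7 macrophage markers were lower (median -0.07), with none of the 8 skeletal muscle markers called. Their part in these changes was not tested.

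**Figure D2:**
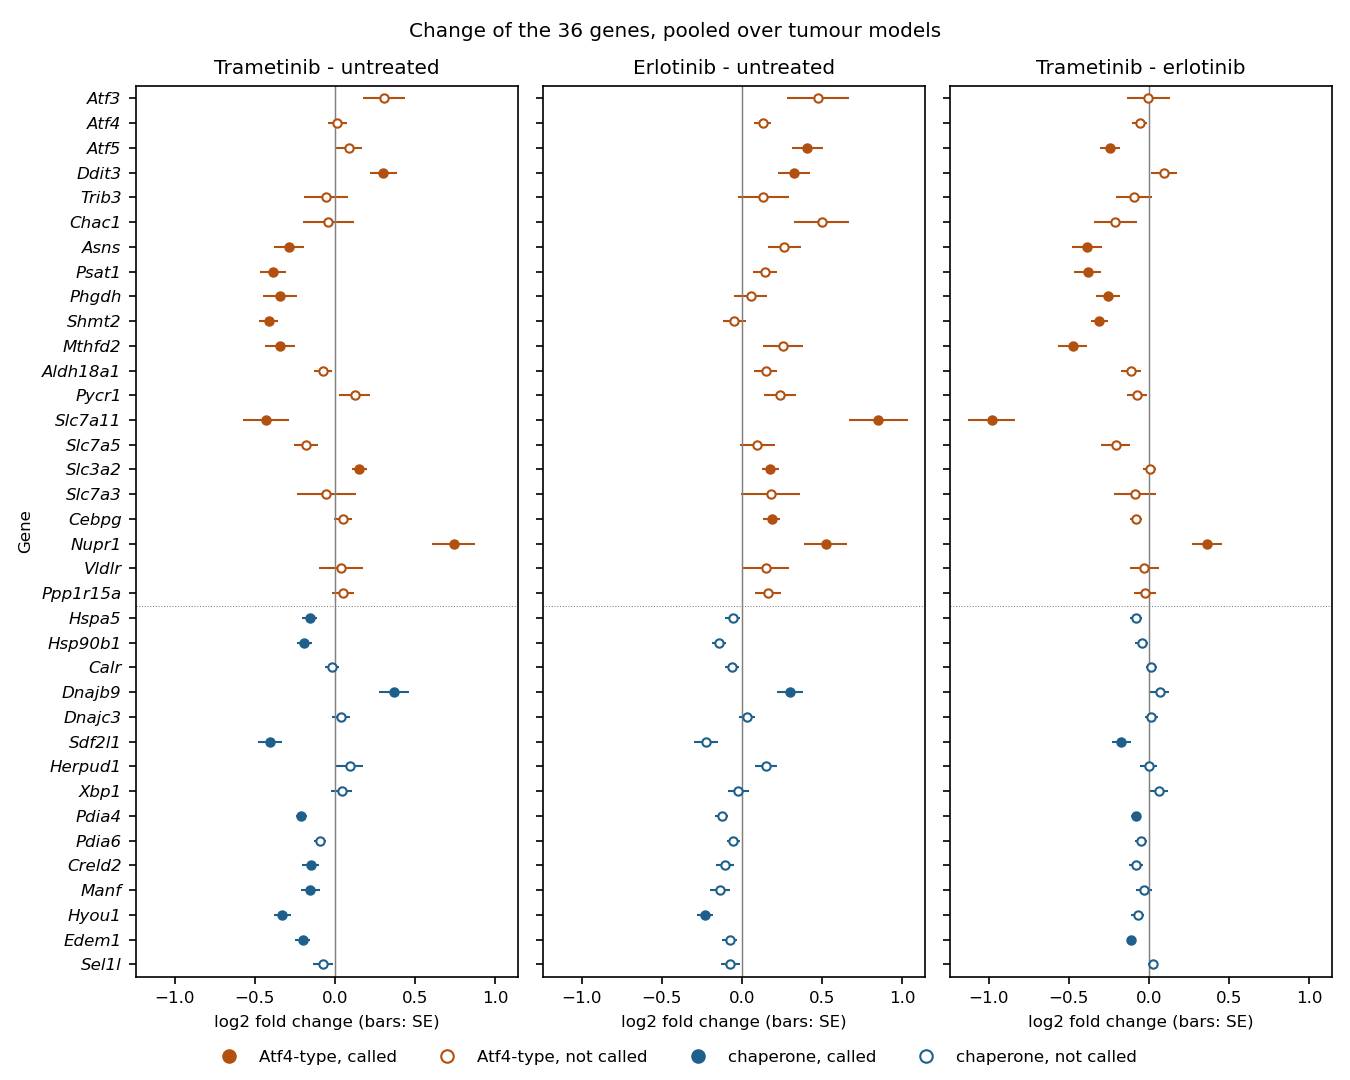
Log2 fold change of each of the 36 genes (points, bars are the standard error) for trametinib minus untreated, erlotinib minus untreated and trametinib minus erlotinib, with filled points for adjusted p under 0.05. The enzymes Asns to Mthfd2 lie left of 0 under trametinib and Slc7a11 lies at 0.85 under erlotinib and -0.43 under trametinib; the first pair of panels share their untreated tumours.

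By model, trametinib moved most members in MMTV-PyMT and 2153, and then MMTV-Neu. In 2153, one of the models with distant untreated libraries, 11 Atf4-type genes fell and 1 rose (23.0% of all genes called). Asns there measured 55.1, 82.6 and 88.2 CPM untreated and 27.0, 28.5 and 29.6 under trametinib (-1.38 ± 0.25), and Slc7a11 5.98, 10.9 and 11.8 against 2.0, 2.02 and 2.16 (-2.19 ± 0.50), without overlap. Further falls in 2153 were those of Slc7a3 (-1.98), Mthfd2 (-1.91), Chac1 (-1.81) and Psat1 (-1.46). Of the chaperone genes of 2153, 3 rose and 4 fell, with Dnajb9 (1.02), Herpud1 (0.98) and Xbp1 (0.77) higher and Hyou1 (-0.89), Edem1 (-0.75) and Hsp90b1 (-0.57) lower. In T11-APOBEC, with library numbers 12 apart, 6 Atf4-type genes and no chaperone gene fell, where 5.11% of genes were called. There Asns measured 120.3, 132 and 136 CPM untreated and 37.5, 41.2 and 43.8 under trametinib (-1.65 ± 0.25), and Slc7a11 (-1.90), Psat1 (-1.19), Phgdh (-1.06), Shmt2 (-1.0) and Mthfd2 (-0.85) fell with it.

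In MMTV-Neu, T11 and 2208 more Atf4-type genes rose than fell under trametinib. In MMTV-Neu 8 Atf4-type genes rose and 2 fell, and 3 chaperone genes rose and 3 fell (25.3% of all genes called). Asns rose from 33.9, 36.3 and 40.0 to 70.0, 97.0 and 118 CPM (1.39 ± 0.25), without overlap. Chac1 (2.25), Slc7a3 (1.81), Nupr1 (1.73) and Cebpg (1.13) rose too and Phgdh fell (-1.32). Of its chaperone genes Dnajb9 (1.35), Xbp1 (1.06) and Dnajc3 (0.60) rose, and Sel1l (-1.35), Herpud1 (-0.66) and Pdia4 (-0.40) fell. In T11 7 Atf4-type genes rose and 3 fell (14.9% of all genes called). Nupr1 there measured 49.7, 50.5, 65.5 and 66.8 CPM untreated and 128, 158 and 194 under trametinib (1.47 ± 0.39), without overlap. Atf3 (1.29), Ddit3 (1.03), Pycr1 (0.95), Atf5 (0.83), Ppp1r15a (0.70) and Slc3a2 (0.43) rose with it, while Slc7a11 (-1.37), Psat1 (-0.92) and Shmt2 (-0.49) fell. Of its chaperone genes Herpud1 (0.67) rose and Hyou1 (-0.48) fell. In 2208 5 rose and 3 fell (15.3% of all genes called), with Nupr1 (2.35), Chac1 (1.37), Ddit3 (1.28), Atf5 (0.99) and Ppp1r15a (0.89) higher and Phgdh (-1.38), Psat1 (-0.83) and Shmt2 (-0.60) lower. Of its chaperone genes Herpud1 rose (0.79) and Hyou1, Hsp90b1, Edem1 and Pdia4 fell. Over all models the response to trametinib differed between models for 32 of 36 genes by an interaction test, beside 64.6% of all genes, and the response to erlotinib for 32 of 36, beside 59.9%.

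Set against each other, trametinib tumours had less mRNA of several amino acid genes than erlotinib tumours of the same models. Untreated tumours do not enter this comparison, and in 2153, 2208, T11 and T11-APOBEC the mean library numbers of the arms differed by 3 or 6. In 22 models (65 against 66 tumours) 7 Atf4-type genes were lower and 1 higher under trametinib, with 9.99% of all genes lower and 10.3% higher, and 3 chaperone genes were lower and none higher. The list medians were -0.09 and -0.05, with 0.01 over all genes. In single models the Atf4-type median was below 0 in 13 and above 0 in 9 of 22. The chaperone median was below 0 in 15 and above 0 in 7. The same trametinib and erlotinib tumours enter the comparisons above.

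Slc7a11 differed by -0.98 ± 0.15 (adjusted p = 2.49e-07 by edgeR) and was lower under trametinib in 18 of 22 models. Its lowest, median and highest levels were 0.357, 3.20 and 55.9 CPM under trametinib and 0.308, 7.01 and 61.8 under erlotinib. Mthfd2 differed by -0.48 ± 0.09, with 5.16, 35.1 and 169.6 CPM against 5.26, 51.8 and 189, and Shmt2 by -0.31 ± 0.05, with 48.7, 125 and 663 against 42.2, 169 and 599. Medians were lower under trametinib in each, though ranges overlapped. Asns (-0.39 ± 0.09), Psat1 (-0.38 ± 0.08), Phgdh (-0.26 ± 0.08) and Atf5 (-0.24 ± 0.06) were also lower. Nupr1 was higher by 0.36 ± 0.09. Atf4 had -0.06 ± 0.05, Atf3 -0.00 ± 0.14, Ddit3 0.09 ± 0.08, Trib3 -0.09 ± 0.11 and Chac1 -0.21 ± 0.14, none of them called. Called chaperone genes were Edem1 (-0.11 ± 0.03, 34.3, 84.8 and 194 CPM against 39.6, 88.4 and 198), Sdf2l1 (-0.17 ± 0.06, 6.44, 26.6 and 67.3 against 12.1, 27.5 and 69.9) and Pdia4 (-0.08 ± 0.03, 110.4, 189.6 and 328 against 131, 196 and 326). Hspa5 (-0.08 ± 0.04), Xbp1 (0.06 ± 0.06), Herpud1 (-0.00 ± 0.05) and Calr (0.02 ± 0.03) were not called. With 1 difference per model only Slc7a11 was left among all 36 genes, and without MMTV-Neu 9 Atf4-type and 5 chaperone genes were lower. These settings called 2.48% and 25.3% of all genes, and the main test 20.3%. Among the marker lists in this comparison, 6 of 6 endothelial markers were lower (median -0.62), 6 of 7 fibroblast markers were higher (median 0.68), 3 of 6 milk genes were higher (median 1.12), 3 of 7 macrophage markers were lower (median -0.28), 3 of 9 immediate early genes were lower (median -0.30), 2 of 10 proliferation genes were lower (median -0.19) and 1 of 7 epithelial markers was lower (median 0.09), with none called in the other 3 lists. Their part in the difference was not tested.

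The difference was concentrated in some models, and the interaction test called 33 of 36 genes, beside 55.9% of all genes. In 2153 12 Atf4-type genes were lower under trametinib than under erlotinib and none higher (22.6% of all genes called). Slc7a11 in 2153 measured 2.0, 2.02 and 2.16 CPM under trametinib and 11.2, 28.0 and 38.1 under erlotinib (-3.60 ± 0.53). Asns measured 27.0, 28.5 and 29.6 against 109, 176 and 245 (-2.59 ± 0.26), with the untreated tumours, 55.1, 82.6 and 88.2, in between. Chac1 (-3.01), Mthfd2 (-2.54), Slc7a3 (-2.18) and Psat1 (-1.93) were lower too. Of the chaperone genes Dnajb9 (1.38) and Xbp1 (0.69) were higher and Hsp90b1 (-0.60), Hyou1 (-0.53) and Pdia4 (-0.35) lower.

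In T11 9 Atf4-type genes were lower under trametinib and none higher (20.4% of all genes). Slc7a11 there measured 1.60, 3.24 and 3.56 CPM against 28.1, 31.1 and 37.8 (-3.51 ± 0.53), and Psat1 53.9, 55.8 and 56.2 against 160.3, 163 and 198 (-1.64 ± 0.29). Asns (-1.58), Slc7a3 (-1.20), Mthfd2 (-1.18) and Trib3 (-1.15) were lower as well, and Calr was higher (0.40). T11-APOBEC had 8 Atf4-type genes lower (4.27% of genes), with Asns at 37.5, 41.2 and 43.8 against 126, 127 and 129 CPM (-1.63 ± 0.25). In 2208, 6 were lower (3.68% of genes), with Phgdh (-1.58) and Mthfd2 (-1.45) among them. Across these 4 models 1, 1 and 5 chaperone genes were called in T11, T11-APOBEC and 2153, and none in 2208.

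Values of other lists moved with this difference in the same tumours. The summed level of 7 fibroblast markers was 11389 to 12033 CPM under trametinib and 783 to 1226 under erlotinib in 2153, 28432 to 35315 and 8293 to 8962 in T11, and 30281 to 31300.0 and 5505 to 7759 in T11-APOBEC. The proliferation list was 706 to 898 against 1458 to 1918 in 2153 and 490.2 to 524 against 982 to 1271 in T11. The part of either in the result was not tested. MMTV-Neu again differed, with 5 Atf4-type genes higher and 5 lower, and 2 chaperone genes higher and 1 lower (23.2% of genes). Its Trib3 (2.19), Slc7a5 (1.63) and Chac1 (1.46) were higher and Atf3 (-3.34), Slc7a11 (-2.56) and Mthfd2 (-1.60) lower under trametinib. Its Xbp1 (0.87) and Hyou1 (0.47) were higher and its Edem1 (-0.36) lower.

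**Figure D3:**
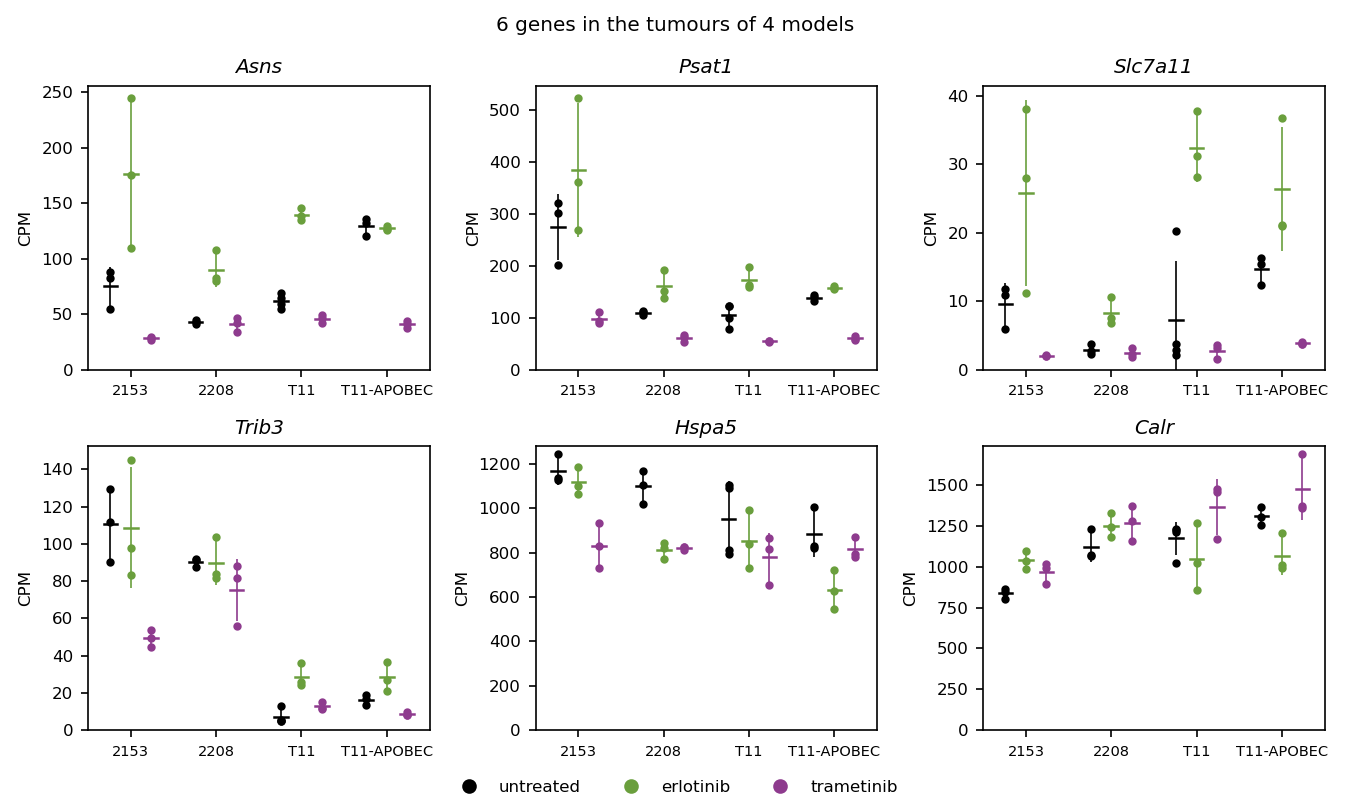
CPM of 6 genes (linear axes from 0) in every untreated, erlotinib and trametinib tumour of 4 models; bars are group means and lines the SD over 3 tumours (4 in untreated T11). Asns in 2153 lies at 27.0, 28.5 and 29.6 under trametinib and 109, 176 and 245 under erlotinib, and Calr at 895, 993 and 1018 and 986, 1036 and 1099.

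Chemotherapy changed few of the 36 genes in the pooled test. Against untreated tumours of 16 models (48 against 54) 3 Atf4-type genes rose and 2 fell, with 12.6% of all genes higher and 6.81% lower, and no chaperone gene was called; list medians were 0.11 and -0.02, with 0.03 over all genes. The Atf4-type median turned to -0.10 with untreated tumours of nearby library number and to -0.07 with the labelled set. Among the marker lists, 4 of 6 endothelial markers were higher (median 0.30), 4 of 7 macrophage markers were higher (median 0.48), 2 of 7 fibroblast markers were higher (median 0.33), 2 of 10 proliferation genes were lower (median -0.09), 1 of 7 plasma cell markers was higher (median 0.45) and 1 of 9 immediate early genes was lower (median -0.11), with none called in the other 4 lists, and their part was not tested. No chaperone gene was called by edgeR although 7843 of all genes had an unadjusted p under 0.05; DESeq2 called 1. Ppp1r15a, the inducible subunit that lets eIF2 be dephosphorylated, rose by 0.38 ± 0.09 (adjusted p = 0.00157 by edgeR) and was higher in 13 of 16 models. Its lowest, median and highest levels were 20.1, 42.3 and 136 CPM against 13.6, 31.2 and 103 untreated. Ddit3 rose by 0.41 ± 0.12 (11.2, 25.2 and 74.9 CPM against 9.76, 19.1 and 51.7) and Nupr1 by 0.54 ± 0.16 (3.10, 95.1 and 543 against 3.34, 68.5 and 339.9), both with overlapping ranges. Slc7a5, the importer of large neutral amino acids, had -0.24 ± 0.09 and Cebpg -0.14 ± 0.05, both called. Not called were Atf4 (0.02 ± 0.07), Atf3 (0.34 ± 0.13), Trib3 (0.14 ± 0.14), Chac1 (0.16 ± 0.15), Asns (-0.19 ± 0.08), Slc7a11 (0.15 ± 0.12), Psat1 (-0.09 ± 0.09) and Phgdh (0.19 ± 0.12).

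The chaperone genes nearest to a call under chemotherapy were Pdia4 (-0.09 ± 0.05, 106, 207 and 393 CPM against 141, 224 and 321), Sdf2l1 (-0.16 ± 0.08, 18.0, 33.5 and 88.3 against 11.7, 37.6 and 76.9) and Dnajc3 (-0.09 ± 0.05, 32.2, 84.2 and 205 against 37.1, 81.0 and 202). Hspa5 (0.04 ± 0.05), Xbp1 (-0.09 ± 0.07), Herpud1 (-0.00 ± 0.07) and Calr (-0.01 ± 0.05) were near 0. These calls depended on the untreated tumours: with those of nearby library number (7 models) no Atf4-type gene was higher, Atf4, Asns, Shmt2, Mthfd2 and Slc7a5 were lower, and the change of Ddit3 turned to -0.036. Of the chaperone genes Dnajb9 (0.28) and Sel1l (0.14) were then higher and Sdf2l1 (-0.32) lower. The labelled set of untreated tumours gave 0 higher and 3 lower, and 1 difference per model gave none. Of all genes 6.88%, 7.29% and 0.224% were called in these 3 settings, and 19.4% in the main test. Library names of 3 KPB25L-UV tumours begin with KPB25L, and without them 3 Atf4-type genes were higher and 1 was lower.

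Chemotherapy and untreated tumours differed in opposite directions in different models. An interaction test called 28 of 36 genes, beside 53.4% of all genes. In KPB25L 13 Atf4-type genes rose and none fell (20.4% of genes called). Asns measured 28.9, 29.9 and 35.6 CPM untreated and 55.4, 58.6 and 65.5 after chemotherapy, and Trib3 6.58, 12.4 and 12.5 against 22.8, 25.4 and 33.5 (1.36 ± 0.40), neither with overlap. Nupr1 (1.46), Ppp1r15a (1.42), Mthfd2 (1.30), Phgdh (1.27) and Slc7a5 (1.24) rose with them. Its chaperone genes divided, Calr (0.68) and Pdia6 (0.46) rising and Dnajb9 (-1.05), Sel1l (-0.50) and Dnajc3 (-0.48) falling. All untreated libraries of KPB25L, C3-TAG and MMTV-PyMT were numbered over 100 away from the chemotherapy ones, so number and treatment cannot be told apart there.

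In C3-TAG both lists rose after chemotherapy: 9 Atf4-type genes rose and 2 fell, and 6 chaperone genes rose and none fell (33.1% of genes called). Phgdh measured 22.5, 36.7, 45.4 and 48.9 CPM untreated and 113, 141 and 456 treated (2.62 ± 0.25), without overlap. Chac1 (1.44), Ddit3 (1.39), Pycr1 (1.12), which makes proline, and Ppp1r15a (1.10) rose, and Vldlr, a lipoprotein receptor, fell (-1.68). Pdia6 (0.72), Creld2 (0.69), Manf (0.55), Hspa5 (0.41), Calr (0.40) and Hsp90b1 (0.37) made up the chaperone rise. Untreated and treated C3-TAG tumours had epithelial marker sums of 2268 to 4206 and 883 to 2897 CPM, whose part was not tested.

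MMTV-PyMT tumours had less mRNA of several amino acid genes in every treated arm than in the untreated arm. Each of these comparisons uses the same 3 untreated tumours. Pycr1 measured 49.9, 84.3 and 253 CPM untreated, 23.6, 30.8 and 38.8 after chemotherapy, 28.6, 41.4 and 66.8 after antibodies, 30.3, 34.7 and 38.0 after erlotinib and 13.2, 28.8 and 37.8 after trametinib. Chac1 measured 4.57, 6.58 and 25.1 untreated and 2.08, 2.11 and 2.81, 2.28, 3.75 and 7.33, 1.56, 1.58 and 2.01 and 1.5, 1.89 and 4.81 in the same order of arms. In both genes 1 untreated tumour lay far above the other 2. Called Atf4-type genes were 13 lower and none higher with chemotherapy (25.9% of genes called), 8 lower and 1 higher with antibodies (7.22%), 11 lower and 2 higher with erlotinib (25.8%) and 11 lower and 1 higher with trametinib (30.5%).

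Slc7a3 had the largest fall in MMTV-PyMT with trametinib (-2.36), erlotinib (-3.19) and chemotherapy (-2.81). Chac1 (-2.14, -2.80 and -2.35), Pycr1 (-2.27, -1.90 and -2.04), Mthfd2 (-1.92, -1.94 and -2.22) and Phgdh (-1.88, -1.75 and -2.0) fell in the same 3 arms, and Atf5 in trametinib (-1.52) and chemotherapy (-1.47). Atf3 rose with erlotinib (1.31). With antibodies the falls were those of Pycr1 (-1.51), Chac1 (-1.44), Mthfd2 (-1.35), Slc7a3 (-1.33), Atf5 (-1.09) and Asns (-0.97), and of the chaperone genes Herpud1 (-1.09), the groups of all but Herpud1 overlapping. Dnajb9 rose in the other 3 arms, by 2.30 with trametinib, 2.29 with erlotinib and 1.54 with chemotherapy, while Sdf2l1 (-1.03, -0.75 and -0.91) and Manf (-0.92, -0.73 and -0.93) fell.

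Antibodies to PD1 and CTLA4 left nearly all of the 36 genes uncalled. In 12 models (36 against 41 tumours) 1 Atf4-type gene rose and 1 chaperone gene fell, with 4.16% of all genes higher and 4.17% lower, and list medians were 0.09 and -0.01, with 0.00 over all genes. Atf3 rose by 0.47 ± 0.15 (adjusted p = 0.0346 by edgeR), with 6.98, 20.5 and 79.9 CPM against 3.09, 13.7 and 71.2 untreated, and was higher in 9 of 12 models. Dnajb9 had -0.26 ± 0.07 (adjusted p = 0.016), with 2.99, 21.6 and 38.1 CPM against 4.56, 23.2 and 47.0, and was lower in 10 of 12 models. Next in p came Ddit3 (0.30 ± 0.11, 10.5, 27.8 and 81.6 CPM against 9.76, 19.2 and 51.7), Ppp1r15a (0.24 ± 0.09, 19.8, 39.4 and 145 against 13.6, 29.8 and 103), Hspa5 (0.15 ± 0.06, 542, 1019 and 1743 against 413, 899 and 1527) and Dnajc3 (-0.12 ± 0.05, 40.8, 89.3 and 177 against 37.1, 93.7 and 202), none called. Atf4 (0.01 ± 0.06), Trib3 (0.26 ± 0.13), Chac1 (0.17 ± 0.16), Asns (0.07 ± 0.08), Slc7a11 (0.14 ± 0.14), Psat1 (0.07 ± 0.08), Phgdh (0.15 ± 0.08), Xbp1 (0.02 ± 0.06), Herpud1 (-0.17 ± 0.08) and Calr (-0.03 ± 0.05) were not called either. Neither call was left with 1 difference per model, with untreated tumours of nearby number (3 models) or with the labelled set. These settings called 0.222%, 0.0103% and 4.62% of all genes, and the main test 8.33%. Among the marker lists, 8 of 8 skeletal muscle markers were lower (median -3.34) and 2 of 6 adipocyte markers were lower (median -1.36), with none called in the other 8 lists, and their part was not tested.

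The response to antibodies differed between models for 21 of 36 genes, beside 39.2% of all genes. The untreated libraries of p53RB-426 and T12 were numbered over 100 away from the antibody ones, so number and treatment cannot be told apart there. In p53RB-426 4 Atf4-type genes rose and no chaperone gene was called (5.69% of genes). Slc7a3 measured 1.86, 2.33 and 2.41 CPM untreated and 10.7, 15.2 and 15.3 treated (2.64 ± 0.46), without overlap, and Vldlr (1.47), Ddit3 (1.05) and Phgdh (0.88) rose too. In T12 the chaperone genes led, 4 higher and 1 lower, with 2 Atf4-type genes lower (15.5% of genes). Hspa5 in T12 measured 797, 804 and 1032 CPM untreated and 1436, 1626 and 1743 treated (0.88 ± 0.17), without overlap. Sdf2l1 (0.82), Edem1 (0.52) and Pdia6 (0.43) rose, and Herpud1 (-0.81), Slc7a5 (-1.20) and Atf5 (-1.0) fell.

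Against chemotherapy, antibody tumours had more of several Atf4-type genes, in arms that were mostly far apart in library number. Only in 2153, 2208, 2224, 2250 and 9263 did chemotherapy libraries lie within 100 of antibody ones. In the other models number and treatment cannot be told apart. No setting with nearby library numbers was run for this comparison. In 16 models (48 against 48) 10 Atf4-type genes were higher and 1 lower, with 7.17% of all genes higher and 8.41% lower, and 2 chaperone genes were higher and 1 lower. List medians were 0.21 and 0.08, with -0.02 over all genes. Asns was higher by 0.35 ± 0.05 (adjusted p = 1.05e-06 by edgeR) and in 13 of 16 models, with 35.0, 78.1 and 590.5 CPM against 22.6, 58.7 and 476. Mthfd2 was higher by 0.33 ± 0.06 (6.96, 71.6 and 196 CPM against 4.51, 55.6 and 156) and Trib3 by 0.49 ± 0.10 (5.0, 52.7 and 161 against 4.41, 37.8 and 146). All 3 had higher medians and overlapping ranges. Slc7a3 (0.36 ± 0.10), Atf3 (0.35 ± 0.12), Chac1 (0.31 ± 0.11), Shmt2 (0.24), Pycr1 (0.23), Aldh18a1 (0.21), which starts proline synthesis, and Atf4 (0.17 ± 0.05) were also higher, and Nupr1 was lower (-0.45 ± 0.14). Ddit3 (0.22 ± 0.09), Psat1 (0.14 ± 0.08), Phgdh (0.20 ± 0.11) and Slc7a11 (-0.16 ± 0.14) were not called.

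Among the chaperone genes Dnajb9 was lower by antibodies against chemotherapy at -0.36 ± 0.07 (2.99, 20.2 and 38.1 CPM against 3.20, 24.4 and 56.0), and Sdf2l1 (0.24 ± 0.07, 18.2, 42.0 and 89.7 against 17.1, 34.4 and 88.3) and Hspa5 (0.16 ± 0.05, 542, 1019 and 1978 against 532, 938 and 1954) were higher. Xbp1 (0.16 ± 0.06), Herpud1 (-0.03 ± 0.06) and Calr (0.04 ± 0.05) were not called. No member was called with 1 difference per model, where 3030 genes had an unadjusted p under 0.05. That setting called 0.0387% of all genes, and the main test 15.6%. Among the marker lists, 8 of 8 skeletal muscle markers were lower (median -2.28), 5 of 6 adipocyte markers were lower (median -1.94), 4 of 7 macrophage markers were lower (median -0.48), 4 of 7 fibroblast markers were lower (median -0.30), 5 of 10 proliferation genes were higher (median 0.17), 4 of 9 immediate early genes were higher (median 0.26), 1 of 6 endothelial markers was lower (median -0.07) and 1 of 7 epithelial markers was higher (median 0.33), with none called in the other 2 lists, and their part was not tested.

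The antibody and chemotherapy difference varied between models for 34 of 36 genes, beside 63.7% of all genes. In 4T1, KPB1-A and C3-TAG all chemotherapy libraries were numbered over 100 away from the antibody ones, so number and treatment cannot be told apart there. In 4T1 11 Atf4-type genes were higher with antibodies and 2 lower, and 5 chaperone genes were higher and 2 lower (30.5% of genes called). Asns in 4T1 measured 47.5, 49.0 and 53 CPM with antibodies and 22.6, 23.7 and 27.4 with chemotherapy, and Trib3 45.3, 51.5 and 71.6 against 11.3, 12.2 and 13.1 (2.18 ± 0.40), without overlap. Atf3 (1.44), Ddit3 (1.4), Mthfd2 (1.15) and Chac1 (1.14) were higher, Slc7a11 (-1.69) and Dnajb9 (-0.80) lower, and Manf (1.19), Sdf2l1 (0.66), Hsp90b1 (0.65), Calr (0.60) and Hspa5 (0.50) higher. Epithelial markers summed to 4494 to 5952 CPM with antibodies and 1535 to 2348 with chemotherapy in 4T1, and their part was not tested.

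KPB1-A had 5 Atf4-type genes higher and 1 lower, and 4 chaperone genes higher and 2 lower (22.3% of genes). Asns (0.97), Trib3 (1.32), Shmt2 (0.91), Mthfd2 (0.90) and Phgdh (0.79) were higher and Nupr1 (-2.31) lower, beside Sdf2l1 (0.88), Hsp90b1 (0.55), Calr (0.45) and Hspa5 (0.43) higher and Dnajb9 (-0.93) and Sel1l (-0.50) lower. C3-TAG was opposite, with 5 Atf4-type genes lower and 2 higher and 4 chaperone genes lower (37.5% of genes). Phgdh in C3-TAG measured 34.0, 42.1 and 43.5 CPM with antibodies and 113, 141 and 456 with chemotherapy (-2.58 ± 0.28). Nupr1 (-1.68), Pycr1 (-1.06), Shmt2 (-0.95), Atf4 (-0.76), Manf (-0.86), Pdia6 (-0.81), Creld2 (-0.80) and Calr (-0.38) were lower and Vldlr was higher (2.50).

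**Figure D4:**
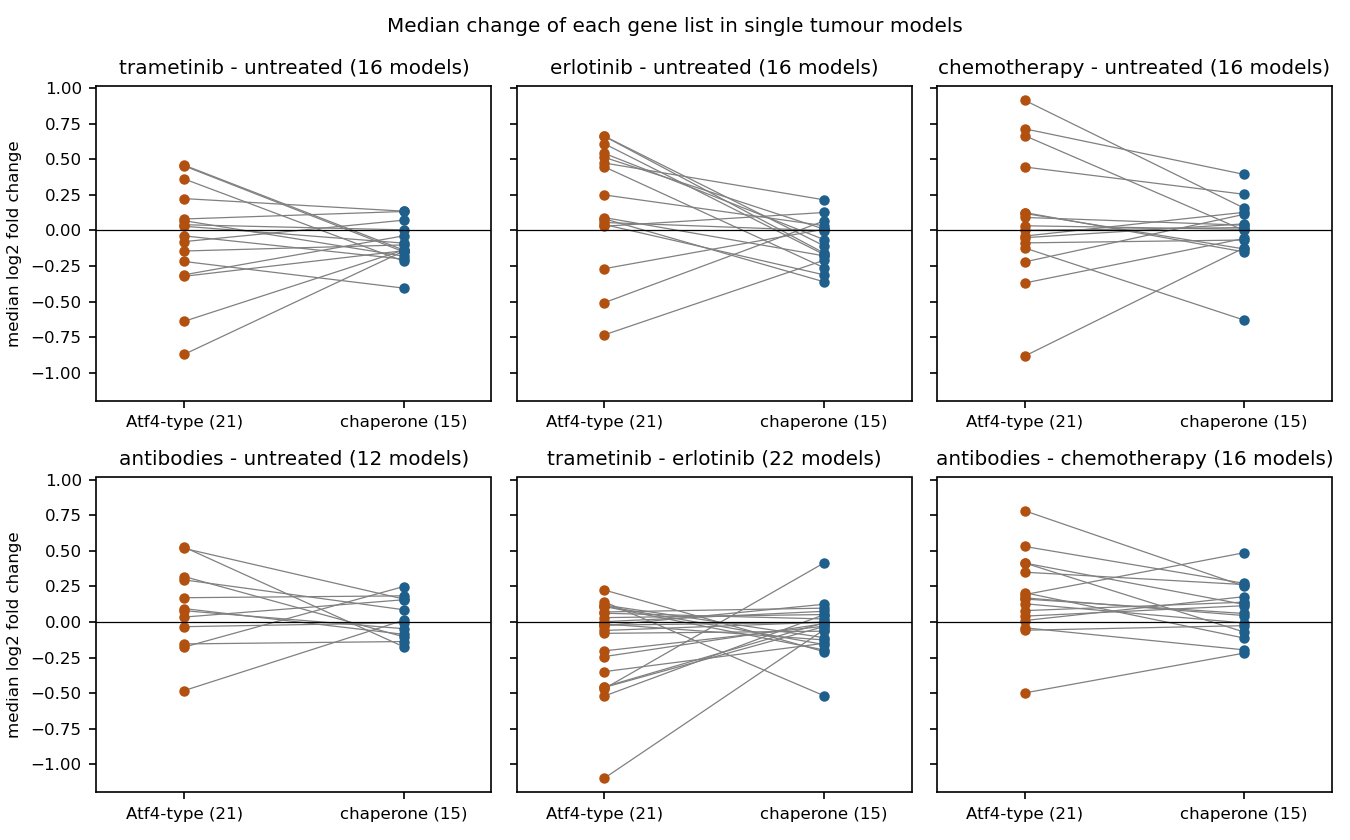
Median log2 fold change of the 21 Atf4-type and the 15 chaperone genes in each model, joined by a line, for the 6 comparisons (antibodies are those to PD1 and CTLA4, chemotherapy is carboplatin plus paclitaxel). Under erlotinib the Atf4-type medians run from -0.73 to 0.66 and are above 0 in 13 of 16 models, while the chaperone medians run from -0.36 to 0.22.

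Genes of a list varied together among tumours of the same model and treatment more than genes of different lists did. Deviations of log2 CPM from the group mean in 307 tumours were correlated for all 630 pairs, as a description: the tumours share libraries' depth and tissue makeup, and no p is given. The median Pearson r was 0.21 for the 210 pairs within the Atf4-type list (Spearman 0.22), 0.30 for the 105 pairs within the chaperone list (0.29) and 0.04 for the 315 pairs across lists (0.04). Pairs across lists were above 0 in 186 of 315 cases. The closest pairs were Creld2 with Manf (0.79), both small secreted proteins of the reticulum, Creld2 with Sdf2l1 (0.76), Creld2 with Pdia6 (0.75) and, among Atf4-type genes, Ddit3 with Ppp1r15a (0.72). Trib3 had the highest mean r with its own list (0.36) and Hspa5 with the chaperone list (0.45).

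Some genes fitted their list poorly. Herpud1 had a mean r of 0.19 with Atf4-type genes and 0.12 with chaperone genes, its closest partner being Atf5 (0.42). Cebpg had a mean r of 0.08 with its own list and 0.13 with chaperone genes. Dnajb9 had a mean r of 0.08 with its own list and Cebpg as its closest partner (0.46). Nupr1, called in 5 of the 6 comparisons, had a mean r of 0.05 with its list, and its closest partner was Atf5 (0.47). Slc7a11 had a mean r of 0.15.

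**Figure D5:**
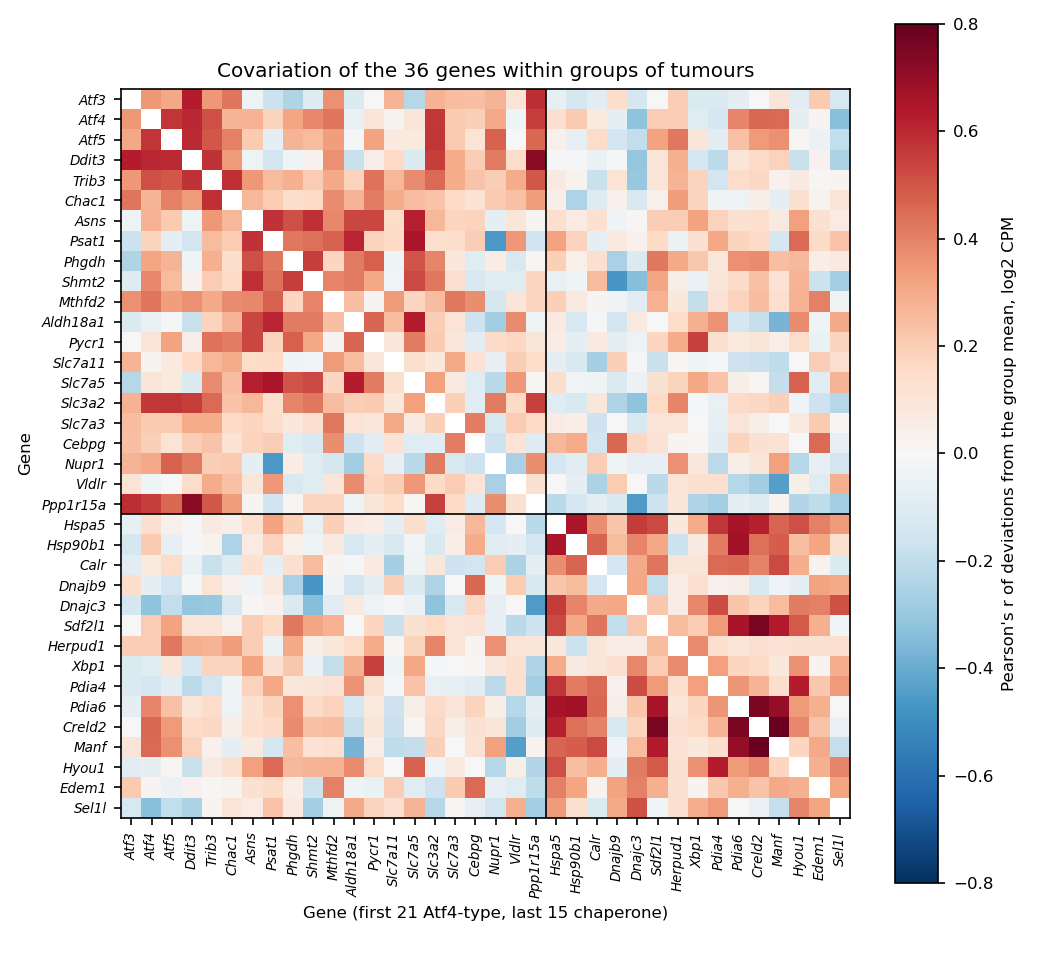
Pearson's r of the deviations of log2 CPM from the group mean for each pair of the 36 genes over 307 tumours, with the 21 Atf4-type genes first and lines at the border of the lists. The blocks within lists are mostly above 0 (170 of 210 and 94 of 105 pairs), and the block across lists has a median of 0.04.

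Genes of the same pathways outside the 36 are given here beside the share of all genes called in the same direction. Of 19 cytosolic tRNA synthetases, which charge tRNAs with amino acids and include Atf4 targets, 15 fell and none rose under trametinib (median -0.19), where 16.7% of all genes fell, with Farsb at -0.33 ± 0.05 and Vars at -0.33 ± 0.05. Against erlotinib 12 were lower and none higher (9.99% of all genes lower), led by Cars (-0.28 ± 0.05) and Gars (-0.21 ± 0.04), and erlotinib against untreated had 1 lower, Kars (2.65% of all genes lower). Antibodies against chemotherapy had 14 higher and none lower (7.17% of all genes higher), led by Lars (0.27 ± 0.04) and Gars (0.23 ± 0.04), antibodies against untreated 4 higher (4.16% of all genes), led by Yars (0.28 ± 0.05) and Lars (0.22 ± 0.04), and chemotherapy against untreated 1 higher and 2 lower (12.6% and 6.81% of all genes).

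Of 22 other Atf4 targets, 5 rose and 8 fell under trametinib, where 14.4% and 16.7% of all genes did, led by Slc1a4, an alanine and serine carrier (0.53 ± 0.09), and Cth, which makes cysteine (-0.68 ± 0.12). Under erlotinib 5 rose and none fell (1.88% of all genes rose), led by Aldh1l2 (0.58 ± 0.12) and Sesn2, an inhibitor of mTORC1 signalling (0.34 ± 0.07). Trametinib against erlotinib had 2 higher and 8 lower (10.3% and 9.99% of all genes), with Pck2 (-0.25 ± 0.05) and Cth (-0.69 ± 0.13) lowest in p. Chemotherapy had 5 higher and 3 lower (12.6% and 6.81% of all genes), with the stress hormone Gdf15 at 1.31 ± 0.21 (adjusted p = 4.92e-06 by edgeR) and Sesn2 at 0.50 ± 0.08, both of which p53 also induces. Antibodies called none of the 22 against untreated tumours. Against chemotherapy, where 7.17% of all genes were higher and 8.41% lower, they had 7 higher, among them Pck2 (0.27 ± 0.05), and 4 lower, among them Gdf15 (-0.66 ± 0.20) and Sesn2 (-0.33 ± 0.09). Ddit4, another stress-induced inhibitor of mTORC1, was not called, with 0.23 ± 0.09 under trametinib and 0.07 ± 0.09 under erlotinib.

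Of 10 sensor and eIF2 phosphatase genes 1 rose and 3 fell under trametinib (14.4% and 16.7% of all genes), with Eif2ak3 at 0.13 ± 0.05, Eif2ak4 at -0.16 ± 0.05, Ern1 at -0.15 ± 0.07 and Atf6 at -0.10 ± 0.05, the last 2 not called. None was called under erlotinib, where Eif2ak3 had 0.05 ± 0.05 and Eif2ak4 -0.04 ± 0.05, or under antibodies. Chemotherapy had 1 higher and 3 lower (12.6% and 6.81% of all genes). Trametinib against erlotinib had 1 higher and 3 lower (10.3% and 9.99%), with Atf6 at -0.11 ± 0.04. Antibodies against chemotherapy had 1 higher and 1 lower (7.17% and 8.41%). Of 29 other genes of folding, disposal and secretion in the reticulum, 7 rose and 4 fell under trametinib (14.4% and 16.7% of all genes), none was called under erlotinib, 3 rose and 2 fell under chemotherapy (12.6% and 6.81% of all genes), and 1 fell under antibodies (4.17%). Among these 29, trametinib against erlotinib had 5 higher and 1 lower (10.3% and 9.99% of all genes), and antibodies against chemotherapy 1 higher (7.17%).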

How the data were processed

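Poly(A) RNA from cryopreserved mammary tumours was sequenced, and per the submitters' processing notes STAR, SAMtools, Picard and Salmon were run on the mm10 build, with versions and parameters not given in the sources used here. Estimated counts per gene symbol were deposited by the authors and underlie all main results; 8.35% of the values were not whole and were rounded. The second deposited table holds a signal scaled by the upper quartile: in every tumour its 75th percentile over values above 0 was 1000.0. It was used only in an alternative with a pseudocount of 1. Samples were grouped by the labels' model and treatment. The labels do not say whether tumours of a group came from separate mice or separate transplants, so p-values measure the spread between these tumours.

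The members and all lists were chosen with earlier results of these data known. Genes passing edgeR's filter on low counts for the design were tested with edgeR 4.0.16 (TMM scaling, quasi-likelihood F-test with model and treatment, R 4.3.3), the dispersion trend being fitted on every 15th gene by abundance. Interaction terms tested whether a response differed between models, and contrasts from 1 fit of all 309 tumours (groups of at least 3 setting the filter) gave changes in single models. Log2 CPM used a prior count of 2. The pooled test was tried on simulated counts for trametinib against untreated, which held no differences between models. The interaction, single-model and untreated tests were not tried in this way. Named are, per comparison and list, called members with up to 6 largest rises and falls, and Atf4, Atf3, Ddit3, Trib3, Chac1, Asns, Slc7a11, Psat1, Phgdh, Hspa5, Xbp1, Herpud1 and Calr always; the 3 members of smallest p have their ranges given. In single models the 3 models with most called members are described, with up to 6 members per list, and of other pathway genes the 2 of smallest p and a fixed few.

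Alternatives were DESeq2 1.42.0, relative log expression scaling, no filter on low counts, limma 3.58.1 on the signal table and on 1 difference per model, leaving out each replicate number or MMTV-Neu, untreated tumours with a library number within 100 of the treated ones or with the labelled set, and leaving out 3 KPB25L-UV tumours. Tumours held 12.1 M to 226 M estimated counts, and at this depth the lowest members (under 1 CPM in some tumours) carry the most counting error.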

Additional observations from a re-analysis of the deposited data

Results flagged for a closer look

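The response to treatment differed between tumour models for many of the 36 genes, by an interaction test of model and treatment with edgeR. It called 32 with trametinib against untreated (64.6% of all genes) and 32 with erlotinib against untreated (59.9%). With carboplatin plus paclitaxel against untreated it called 28 (53.4%), and with anti-PD1 plus anti-CTLA4 against untreated 21 (39.2%). The same test called 33 genes for trametinib against erlotinib (55.9% of all genes) and 34 for antibodies against chemotherapy (63.7%). Differing responses were thus common outside the 36 genes too. The first 4 comparisons share their untreated tumours. None of the groups of 4, 6 or 9 tumours had a tumour standing apart in the mean level of either list, over 10 such checks, of which chance would flag about 5%. All of these groups were untreated. Groups of 3 were not checked, among them erlotinib MMTV-Neu and untreated MMTV-PyMT, whose tumours were unlike one another above.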

How the results depend on the processing

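Counts below are members called, Atf4-type first and chaperone second, beside main counts of 9 and 9 (trametinib), 6 and 2 (erlotinib), 5 and 0 (chemotherapy) and 1 and 1 (antibodies) against untreated, 8 and 3 (trametinib against erlotinib) and 11 and 3 (antibodies against chemotherapy). In the same order the main tests called 31.1%, 4.53%, 19.4%, 8.33%, 20.3% and 15.6% of all genes. Limma on 1 difference per model, which has fewer values per test, gave 3 and 2, 0 and 0, 0 and 0, 0 and 0, 1 and 0, and 0 and 0. It called 6.83%, 0%, 0.224%, 0.222%, 2.48% and 0.0387% of all genes. Over leaving out replicate 1, 2 or 3 of every group the ranges were 5 to 8 and 6 to 10 (trametinib), 0 to 2 and 0 to 1 (erlotinib), 0 to 3 and 0 to 0 (chemotherapy), 0 to 0 and 0 to 1 (antibodies), 5 to 7 and 0 to 1 (trametinib against erlotinib), and 2 to 5 and 1 to 2 (antibodies against chemotherapy). The shares of all genes called were then 19.7% to 22.8%, 0.312% to 0.992%, 5.23% to 11.5%, 0.766% to 3.29%, 7.45% to 13.3% and 1.46% to 7.36%. Calls summed over single models were then 54 to 79 instead of 103, 40 to 66 instead of 76, 63 to 78 instead of 106, 11 to 18 instead of 27, 39 to 59 instead of 65 and 36 to 59 instead of 77. Members that differed between untreated models were 35 to 36.

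With untreated tumours of nearby library number, erlotinib gave 1 Atf4-type call (3.94% of all genes called), chemotherapy 3 chaperone calls (6.88%) and antibodies 0 and 0 (0.0103%). Under chemotherapy the change of Ddit3, called before, turned to -0.036 in this setting. Those of Atf4 (-0.24), Dnajb9 (0.28) and Sel1l (0.14), not called before, turned sign and were called. With the labelled set of untreated tumours, trametinib gave 4 Atf4-type calls (24.2% of all genes called), erlotinib 1 (6.16%), chemotherapy 3 and 1 (7.29%), and antibodies 0 and 0 (4.62%). Without MMTV-Neu, erlotinib gave 3 and 1 (2.62% of all genes called), chemotherapy 1 chaperone call (19.8%) and antibodies 3 Atf4-type calls (9.71%). Trametinib against erlotinib then gave 5 chaperone calls (25.3%) and antibodies against chemotherapy 7 (15.9%). DESeq2 gave 5 chaperone calls for erlotinib, 1 higher and 4 lower (6.95% of all genes called). It gave 1 chaperone call for chemotherapy (23.5%) and 2 Atf4-type calls for antibodies (11.1%). Relative log expression scaling gave 4 chaperone calls for erlotinib, 1 higher and 3 lower (4.68%). Without a filter on low counts erlotinib and chemotherapy gave 3 Atf4-type calls each (2.16% and 10.7% of all genes called) and trametinib against erlotinib 1 chaperone call (9.57%). Limma on the authors' upper-quartile table gave 3 and 6 for erlotinib (12% of all genes called), the 6 being 1 higher and 5 lower. It gave 1 chaperone call for chemotherapy (27.6%), 4 and 2 for antibodies (11.5%) and 1 chaperone call for trametinib against erlotinib (22%). The cause of these differences between settings was not tested in any of them. Leaving out the 3 KPB25L-UV tumours gave 4 and 0 calls for chemotherapy (16.3% of all genes called).

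Of the log2 changes of single members under all alternatives, these 4 changed sign with a call in either setting. The Atf4-type list median under trametinib turned to 0.08 with nearby and 0.02 with labelled untreated tumours, and that under antibodies to -0.05 with nearby ones. No paired analysis was possible because the labels give no replicate numbers: those used here follow the order of the samples and pair nothing. Antibody against chemotherapy holds no KPB25L-UV tumours, so their removal was not run there. Depth limits mainly Slc7a3, Slc7a11 and Chac1, the members with the lowest CPM.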
